A study of Mus musculus with 12 samples.

Results

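The CXCR2 chemokine axis is described here through 7 genes of the 21247 in the count table, namely the ligand genes *Cxcl1*, *Cxcl2*, *Cxcl3*, *Cxcl5* and *Ppbp*, the receptor gene *Cxcr2* and the growth factor gene *Csf3*. The members are the genes whose symbols equal these 7, a rule that reads no measured value, but the list was drawn up with earlier results of these data known, so the counts of members called are descriptions. RNA-seq of periocular skin compared 4 libraries labelled ft/ft with 4 labelled ft/ftMyD88-/-, from BALB/c mice given as 6-week-old females. ft/ft mice have lost the function of filaggrin (*Flg*), which bundles keratin and feeds the moisture of the cornified layer, through a point mutation that arose spontaneously, with the matted (ma) mutation of the original flaky tail strain bred out. ft/ftMyD88-/- mice carry the same filaggrin mutation and lack MyD88, through which most toll-like receptors and the receptors of IL-1 family cytokines signal, after an in-house cross with MyD88-/- mice, so both groups are filaggrin deficient and no MyD88-deficient group with intact filaggrin was compared. The deficiency is given for the whole animal and for no single cell type. WT libraries were not analysed here.

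Neutrophils follow gradients of ELR-type CXC chemokines, which carry a Glu-Leu-Arg motif ahead of their first cysteines and bind the G protein-coupled receptor CXCR2. In skin, keratinocytes, fibroblasts, endothelial cells and myeloid cells can make CXCL1, CXCL2, CXCL3 and CXCL5, whereas PPBP is the precursor of CXCL7, best known as a platelet granule protein. *Csf3* encodes G-CSF, the growth factor that drives neutrophil production and release from the marrow. IL-17A raises the amounts of several of these transcripts in epithelial cells, in part by making them more stable, and NF-kappa B drives the transcription of *Cxcl1* and *Cxcl2*.

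The 5 ligand genes lie in a cluster on mouse chromosome 5 (GRCm38.p6), all on the plus strand, whereas *Cxcr2* lies on chromosome 1 (74153994 to 74161246) and *Csf3* on chromosome 11 (98700183 to 98703631). *Cxcl5* (90759298 to 90761625) comes first, followed by *Ppbp* (90768518 to 90770063), *Cxcl3* (90786101 to 90788093), *Cxcl1* (90891245 to 90893121) and *Cxcl2* (90903899 to 90905938), over a span of 146641 bases. The platelet factor 4 gene *Pf4* (90772435 to 90773383) lies between *Ppbp* and *Cxcl3*, and *Cxcl15* (90794534 to 90803067, not analysed here) between *Cxcl3* and *Cxcl1*. Each value below is a sum of reads over a gene's exons, of which *Cxcl1*, *Cxcl2*, *Cxcl3* and *Cxcl5* have 4 in their main transcript, *Ppbp* 3, *Cxcr2* 2 and *Csf3* 5.

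The 150 bases ahead of the annotated start are shown for the ligand genes *Cxcl1*, *Cxcl2*, *Cxcl3* and *Ppbp*, because they belong to this locus, and for the receptor gene, whose level moved little. They were copied from RefSeq for GRCm38.p6, where 5 of the 7 members had an entry and *Cxcl5* and *Csf3* did not. Capitals mark, on either strand, the runs of 8 or more letters that the *Cxcl1*, *Cxcl2* and *Cxcl3* windows have in common, GGGAATTTCCC, which holds an NF-kappa B type motif, and ATAAAAGG, which holds a TATA type motif.
Cxcl1, chr5:90891095-90891244: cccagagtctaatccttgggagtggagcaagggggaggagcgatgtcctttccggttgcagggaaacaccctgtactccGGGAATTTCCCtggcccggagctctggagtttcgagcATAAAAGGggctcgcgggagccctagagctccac
Cxcl2, chr5:90903749-90903898: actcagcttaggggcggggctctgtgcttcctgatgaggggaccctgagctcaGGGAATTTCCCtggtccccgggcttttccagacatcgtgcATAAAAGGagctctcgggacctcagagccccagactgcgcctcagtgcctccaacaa
Cxcl3, chr5:90785951-90786100: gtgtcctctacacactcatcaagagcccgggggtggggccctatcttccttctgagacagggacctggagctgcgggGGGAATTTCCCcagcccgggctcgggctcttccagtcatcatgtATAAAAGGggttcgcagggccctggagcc
Ppbp, chr5:90768368-90768517: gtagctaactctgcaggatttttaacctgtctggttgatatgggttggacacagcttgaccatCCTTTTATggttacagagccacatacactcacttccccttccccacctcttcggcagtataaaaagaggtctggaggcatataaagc
Cxcr2, chr1:74153844-74153993: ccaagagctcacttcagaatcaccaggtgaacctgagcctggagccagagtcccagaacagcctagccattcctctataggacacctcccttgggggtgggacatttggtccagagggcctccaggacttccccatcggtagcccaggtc
The windows of *Cxcl1*, *Cxcl2* and *Cxcl3* each held both runs on the plus strand. GGGAATTTCCC stood 71 to 61 bases before the start of *Cxcl1*, 97 to 87 before that of *Cxcl2* and 73 to 63 before that of *Cxcl3*, with ATAAAAGG nearer the start in each. The *Ppbp* window held ATAAAAGG only on the minus strand, 87 to 80 bases before the start, and the *Cxcr2* window held neither. Nearer the start, the plus strand of the *Ppbp* window reads tataaaaag, which also holds a TATA type motif. It is not the shared run and so stands in lower case. Of 32851 RefSeq promoter windows of this length, 0.0304% held GGGAATTTCCC, 1.05% held ATAAAAGG, and 3 held both, which were those of *Cxcl1*, *Cxcl2* and *Cxcl3*. The runs were taken from these windows, so the shares describe them and test nothing.

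Total counts were 15802957 to 29255129 per library with no difference detected between groups of 4 libraries (exact permutation test, two-sided p = 0.457, where 0.0286 is the smallest p possible). *Myd88* itself was higher under the ft/ftMyD88-/- label, at 41.2 ± 7.29 CPM (SD, n = 4) against 30.7 ± 4.74 in ft/ft (log2 fold change 0.42, edgeR adjusted p = 0.0484). CPM here are counts relative to the library size after edgeR's TMM scaling. A count over the whole gene cannot show a deleted exon, so directions rest on the labels. *Xist*, the RNA that silences an X chromosome in females, was at 34.6 to 66.8 CPM in the libraries labelled ft/ftMyD88-/- and had 1 count in total in those labelled ft/ft, where the Y-linked *Ddx3y* stood at 54.2 to 73.2 CPM against at most 0.482. The transcripts were thus those of males in the ft/ft libraries and of females in the ft/ftMyD88-/- libraries, and sex and genotype cannot be told apart in the values below. Basal keratinocyte markers summed to 7954 to 12183 CPM and skeletal muscle markers to 3375 to 11936 CPM. The 4 libraries of a group stand for 4 mice, and no label says which mouse gave which library. In bulk tissue, fewer cells of a type and less RNA per cell cannot be told apart.

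The 5 ligand genes had 12 to 185 counts together in each ft/ft library and 311 to 3866 in each ft/ftMyD88-/- library. Of the 7 members, *Cxcl1*, *Cxcl2* and *Cxcl5* rose (edgeR quasi-likelihood test, Benjamini-Hochberg adjusted p under 0.05), none fell and 4 did not pass, where 10.9% of the 20454 genes tested were called higher and 12.3% lower, 23.3% in all. All 7 had at least 10 counts in total and entered the test. The libraries of the groups did not overlap for 4 members, *Cxcl1*, *Cxcl2*, *Cxcl3* and *Cxcl5*, which was also the case, in the same direction, for 12.5% of all genes tested. The median log2 fold change of the 7 was 3.59 against 0.01 over all genes tested.

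*Cxcl1* encodes KC, the mouse chemokine closest to human GRO-alpha. It was at 0.386, 0.946, 0.279 and 0.0767 CPM in ft/ft replicates 1 to 4 and at 4.03, 5.51, 4.22 and 7.50 CPM in ft/ftMyD88-/- replicates 1 to 4. Every ft/ftMyD88-/- library lay above every ft/ft library, and the spread within ft/ftMyD88-/- was narrow. The means were 5.32 ± 1.60 (SD, n = 4) and 0.422 ± 0.372 CPM (SD, n = 4), a ratio of 12.6, and the fitted log2 fold change was 3.59, with a standard error of 0.481 and an edgeR adjusted p of 0.000816. The call held with each library left out, with log2 fold changes from 3.22 without ft/ft replicate 4 to 4.43 without ft/ft replicate 2.

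*Cxcl2* encodes MIP-2, made largely by myeloid cells and epithelium. It had 0, 26, 0 and 1 counts in ft/ft, or 0, 0.946, 0 and 0.0383 CPM. A count of 0 allows up to 3 counts, which is 0.129 CPM in ft/ft replicate 1 and 0.167 CPM in ft/ft replicate 3. *Cxcl2* was at 1.97, 3.78, 2.52 and 2.68 CPM in ft/ftMyD88-/-. The groups did not overlap, and 26 of the 27 ft/ft counts came from replicate 2. The means were 2.74 ± 0.760 and 0.246 ± 0.467 CPM (SD, n = 4 each), and the fitted log2 fold change was 3.31, with a standard error of 0.888 and an edgeR adjusted p of 0.0319. Without ft/ft replicate 2 the log2 fold change was 7.09 (edgeR adjusted p = 5.58e-05). Leaving out any of the other 7 libraries ended the call, with log2 fold changes of 2.91 to 3.44 and edgeR adjusted p up to 0.0769, and so did DESeq2 (adjusted p = 0.0564).

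*Cxcl3* is the member closest in sequence to *Cxcl2*. It was at 0.214, 0.836, 0 and 0 CPM in ft/ft and at 3.59, 12.4, 1.02 and 2.01 CPM in ft/ftMyD88-/-. The groups did not overlap, but 338 of the 483 ft/ftMyD88-/- counts came from replicate 2. The means were 4.76 ± 5.21 and 0.263 ± 0.396 CPM (SD, n = 4 each), and the log2 fold change of 4.05 (standard error 1.24) had an edgeR adjusted p of 0.0601. The same difference passed with DESeq2 (adjusted p = 0.0231) and without replicate 2 of both groups (log2 fold change 4.79, edgeR adjusted p = 0.00964). Of the 50-base stretches of their transcripts, 6.31% of those of *Cxcl3* and 3.28% of those of *Cxcl2* occurred in the other gene, so a small share of reads could not be assigned to either.

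*Cxcl5* encodes LIX, a ligand made mainly by epithelial and stromal cells. It was at 0.686, 1.49, 0.167 and 0.192 CPM in ft/ft and at 18.6, 27.8, 2.59 and 9.51 CPM in ft/ftMyD88-/-. The groups did not overlap, with replicates 1 and 2 the highest in both of them. The means were 14.6 ± 10.97 and 0.634 ± 0.619 CPM (SD, n = 4 each), a ratio of 23.1, and the fitted log2 fold change was 4.45, with a standard error of 0.983 and an edgeR adjusted p of 0.0212. The call was lost without ft/ft replicate 1, 3 or 4, at edgeR adjusted p of 0.0580, 0.0576 and 0.0613, while the log2 fold change stayed between 3.94 and 5.35 with any library left out.

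*Ppbp* had the highest fitted fold change of the 7 and the widest spread. It was at 0.429, 2.51, 0.223 and 0.575 CPM in ft/ft and at 19.9, 92.5, 0.238 and 3.48 CPM in ft/ftMyD88-/-. The ft/ftMyD88-/- libraries ran 389-fold from lowest to highest, and replicate 3 lay inside the ft/ft range. The means were 29.02 ± 43.2 and 0.934 ± 1.06 CPM (SD, n = 4 each), and the log2 fold change of 4.87 (standard error 1.78) did not pass (edgeR adjusted p = 0.101). It passed without ft/ftMyD88-/- replicate 3 (5.30, edgeR adjusted p = 0.0476) and with DESeq2 (4.98, adjusted p = 0.00328), and it was 3.00 without ft/ftMyD88-/- replicate 2 (edgeR adjusted p = 0.217).

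*Cxcr2*, the receptor of these ligands, was at 12.1, 21.4, 16.01 and 14.3 CPM in ft/ft and at 20.1, 25.6, 13.2 and 18.5 CPM in ft/ftMyD88-/-. The groups overlapped over most of their range. The means were 19.4 ± 5.09 and 15.97 ± 3.97 CPM (SD, n = 4 each), and the fitted log2 fold change was 0.28, with a standard error of 0.213 and an edgeR adjusted p of 0.383. The difference did not pass under any of 18 alternatives, with log2 fold changes from 0.12 to 0.46. Repeats shared with other genes made up 6.68% of the 50-base stretches of *Cxcr2* transcripts.

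*Csf3* was at 0.300, 0.727, 0 and 0.115 CPM in ft/ft and at 1.49, 1.98, 0.170 and 0.915 CPM in ft/ftMyD88-/-. It was the least abundant member in ft/ftMyD88-/-, with 108 counts there and 30 in ft/ft, and replicate 3 of ft/ftMyD88-/- lay inside the ft/ft range. The means were 1.14 ± 0.780 and 0.286 ± 0.319 CPM (SD, n = 4 each), and the fitted log2 fold change was 1.88, with a standard error of 0.851 and an edgeR adjusted p of 0.144. It passed without ft/ftMyD88-/- replicate 3 (2.28, edgeR adjusted p = 0.0320) and with DESeq2 (1.98, adjusted p = 0.0423). A noncoding RefSeq gene, *Gm38985*, overlaps *Csf3*, and its part in the counts of *Csf3* was not tested.

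**Figure D1:**
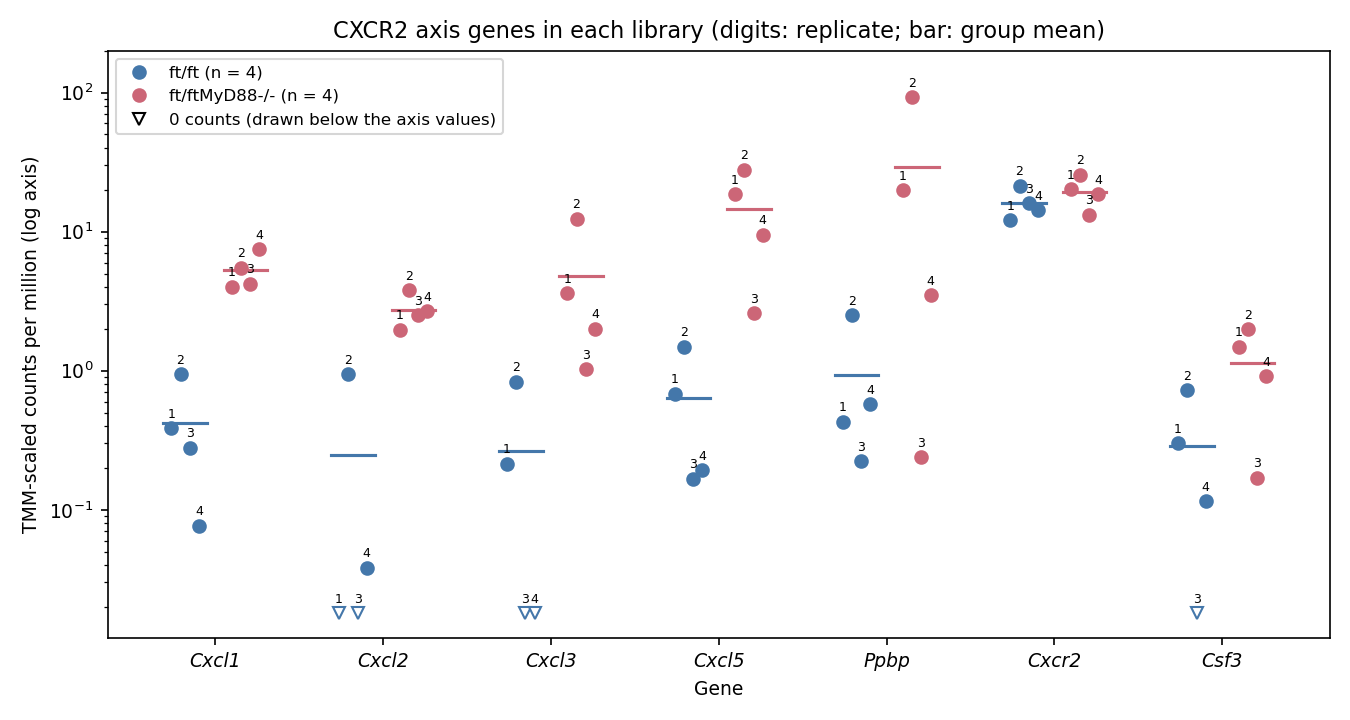
TMM-scaled CPM (log axis) of the 7 members in each of the 8 libraries, with blue points for ft/ft, red points for ft/ftMyD88-/-, digits for the replicate, bars for the group mean (n = 4) and open triangles for libraries with 0 counts. *Cxcl1*, *Cxcl2*, *Cxcl3* and *Cxcl5* do not overlap between groups, *Ppbp* runs from 0.238 to 92.5 CPM in ft/ftMyD88-/-, and *Cxcr2* is at 12.1 to 25.6 CPM in all 8 libraries.

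**Figure D2:**
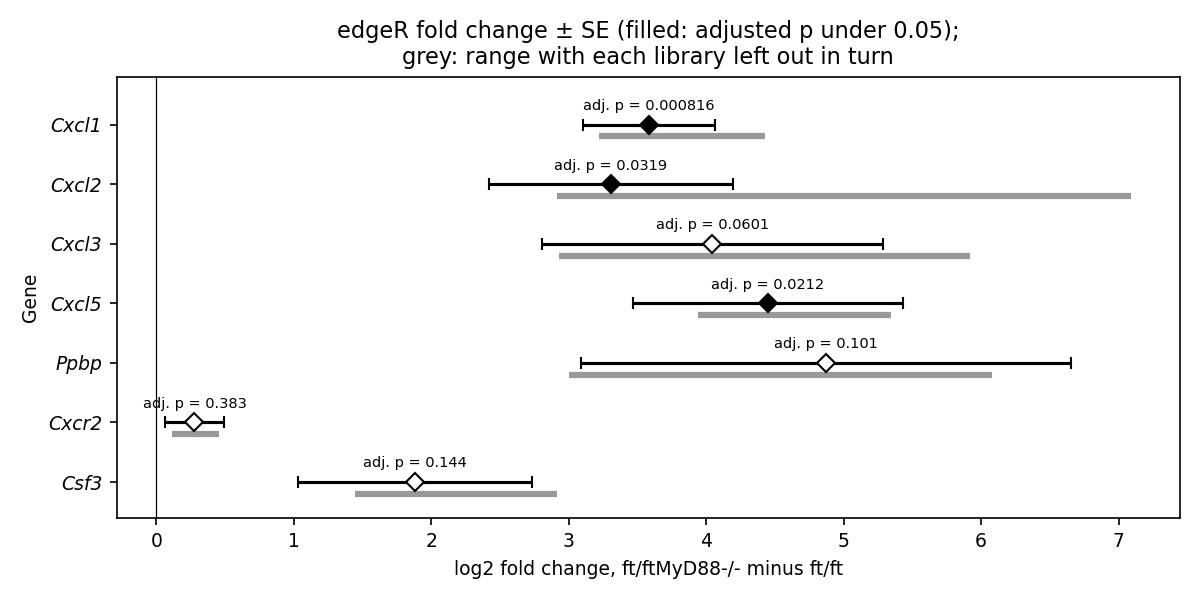
Log2 fold change of ft/ftMyD88-/- against ft/ft for each member, with bars of 1 standard error, filled diamonds for an edgeR adjusted p under 0.05 and grey bars for the range with each library left out. *Cxcl1*, *Cxcl2* and *Cxcl5* passed, and the range of *Cxcl2* reached 7.09 without ft/ft replicate 2.

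Several members varied together within groups, *Cxcl1* and *Cxcl2* less so than the others. ft/ft replicate 2 held the highest CPM of its group for 7 of the 7 members, and ft/ftMyD88-/- replicate 2 for 6 of 7 (*Cxcl1* was highest in replicate 4). ft/ftMyD88-/- replicate 3 was the lowest for 5 of 7, and replicate 1 for *Cxcl1* and *Cxcl2*. The share of all tested genes with these ranks was not counted, so the ranks cannot be called particular to the members. ft/ft replicate 2 supplied 26 of the 42 ft/ft counts of *Cxcl1*, 23 of 28 of *Cxcl3*, 41 of 65 of *Cxcl5* and 69 of 98 of *Ppbp*. The biological coefficient of variation was 1.13 for *Cxcl2*, 1.36 for *Cxcl3*, 0.859 for *Cxcl5*, 1.37 for *Ppbp* and 0.827 for *Csf3*, each above that of at least 99% of tested genes, against 0.415 for *Cxcl1*, 0.223 for *Cxcr2* and 0.182 over all genes. After the group means were taken off, the Pearson correlation of a member's log2 CPM with the mean of the other 6 over the 8 libraries was 0.958 for *Cxcl5*, 0.949 for *Cxcl3*, 0.923 for *Csf3*, 0.835 for *Cxcr2*, 0.791 for *Ppbp*, 0.605 for *Cxcl2* and 0.547 for *Cxcl1*. These values describe 8 libraries whose counts of different genes share depth and tissue make-up. Without replicate 2 of both groups, 4 members were called higher, *Cxcl1*, *Cxcl2*, *Cxcl3* and *Cxcl5*.

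Levels of different genes were compared per length, as CPM per kilobase of the main transcript. In ft/ft the receptor stood above the ligands, with *Cxcr2* at 5.24 ± 1.30 CPM per kilobase (SD, n = 4), followed by *Ppbp* at 0.862 ± 0.979, *Cxcl1* at 0.443 ± 0.390, *Cxcl5* at 0.403 ± 0.393, *Cxcl3* at 0.259 ± 0.389, *Cxcl2* at 0.222 ± 0.421 and *Csf3* at 0.202 ± 0.226. Below *Cxcr2*, neighbours in this order differed by less than the spread between libraries. In ft/ftMyD88-/- the order of the means was *Ppbp* at 26.8 ± 39.9 CPM per kilobase (SD, n = 4), *Cxcl5* at 9.29 ± 6.97, *Cxcr2* at 6.36 ± 1.67, *Cxcl1* at 5.58 ± 1.68, *Cxcl3* at 4.69 ± 5.13, *Cxcl2* at 2.47 ± 0.686 and *Csf3* at 0.807 ± 0.552. Neighbours in that order differed by less than their spread except *Csf3*, whose highest library (1.40 CPM per kilobase) lay below the lowest of *Cxcl2* (1.78).

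The ligand mix differed between ft/ftMyD88-/- libraries. The 5 ligands summed to 39.7, 125, 9.56 and 21.5 CPM per kilobase in ft/ftMyD88-/- replicates 1 to 4 and to 1.45, 5.93, 0.605 and 0.768 in ft/ft, so the lowest ft/ftMyD88-/- library lay above the highest ft/ft library. *Ppbp* made up 46.2%, 68.6%, 2.30% and 14.9% of that sum in ft/ftMyD88-/- replicates 1 to 4. *Cxcl1* made up 10.7%, 4.64%, 46.3% and 36.6%, so it led the mix in replicates 3 and 4, where *Ppbp* was low. The share of *Cxcl3* stayed at 8.91% to 10.5%. In ft/ft the shares rest on 40, 185, 12 and 23 ligand counts per library and are too coarse to rank.

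**Figure D3:**
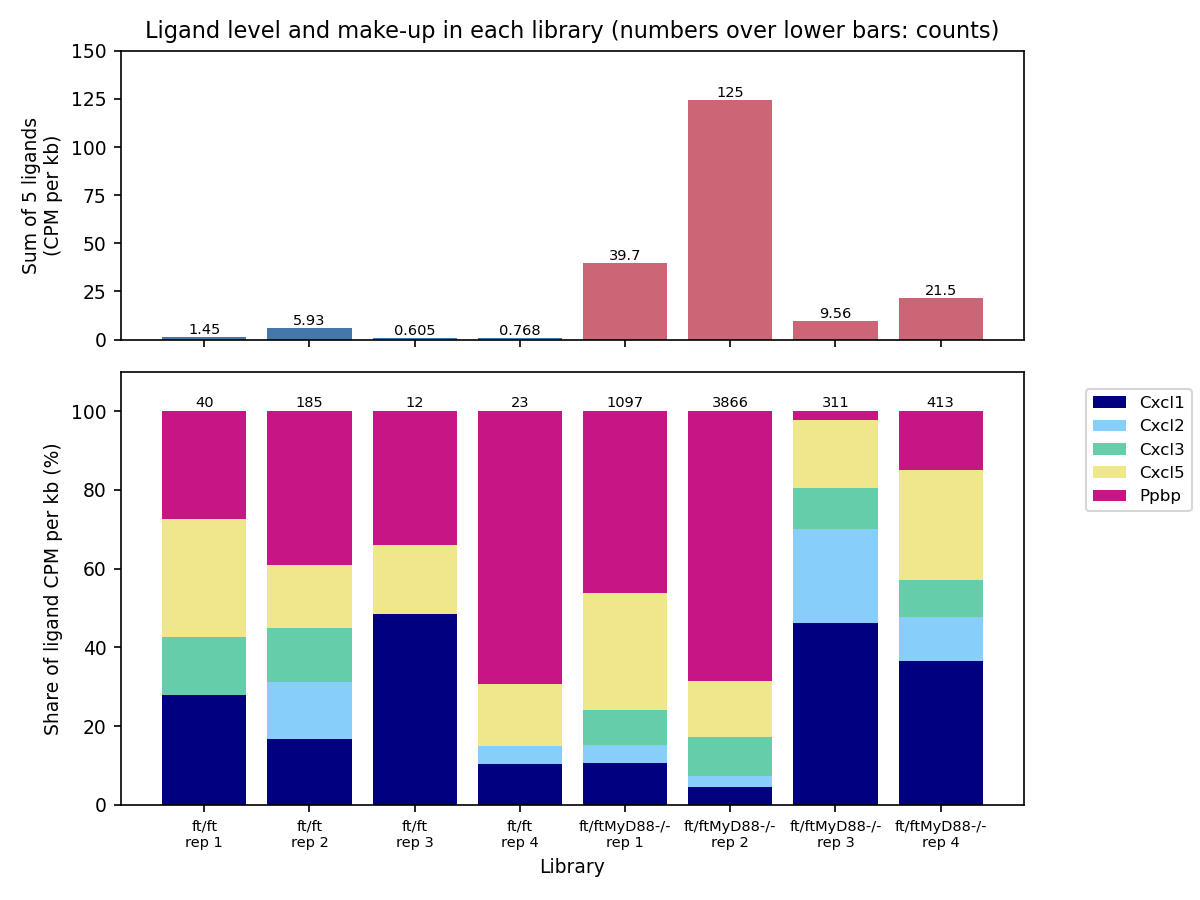
Summed CPM per kilobase of the 5 ligand genes in each library (upper panel) and the share of each ligand in that sum (lower panel, %, with the ligand counts of the library above each bar). The sum is 0.605 to 5.93 in ft/ft and 9.56 to 125 in ft/ftMyD88-/-, and *Ppbp* takes 2.30% to 68.6% of it among the ft/ftMyD88-/- libraries.

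Of 4 further ligands, receptors and scavengers, *Ackr1*, the atypical receptor with which venular endothelium and red cells bind inflammatory chemokines, fell from 11.7 ± 1.41 to 7.06 ± 1.93 CPM (SD, n = 4 each; fitted log2 fold change -0.72 with standard error 0.181, edgeR adjusted p = 0.0134) and the other 3 did not pass. *Cxcr1*, which encodes a related receptor, was low in both groups, with means of 0.431 ± 0.158 CPM for ft/ft and 0.341 ± 0.124 CPM for ft/ftMyD88-/- (SD, n = 4 each, edgeR adjusted p = 0.540). *Pf4*, the neighbour of *Ppbp* and likewise a platelet granule gene, was at 12.7 ± 1.68 and 16.8 ± 5.74 CPM (SD, n = 4 each, edgeR adjusted p = 0.194). Of 5 colony-stimulating factor and receptor genes, 1 rose, the G-CSF receptor gene *Csf3r*, from 3.28 ± 1.98 to 8.82 ± 3.69 CPM (SD, n = 4 each; fitted log2 fold change 1.42 with standard error 0.434, edgeR adjusted p = 0.0476), and no gene of the 5 was called higher without ft/ft replicate 1, 3 or 4 or without ft/ftMyD88-/- replicate 1, 2 or 4.

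Of 14 genes that act downstream of CXCR2 in leukocytes, 7 rose, 2 fell and 5 did not pass, with a median log2 fold change of 0.26. Without ft/ft replicate 4, 4 rose and 1 fell, and 1 fell also without ft/ft replicate 2 or ft/ftMyD88-/- replicate 4. The 7 included the small GTPase gene *Rac2* (log2 fold change 0.55, edgeR adjusted p = 0.0154), its exchange factor *Vav1* (0.76, adjusted p = 0.00293), the Src-family kinase gene *Fgr*, and *Arrb2* (0.45, adjusted p = 0.00681), which encodes a beta-arrestin that desensitises receptors. The other beta-arrestin gene, *Arrb1*, fell (-0.65, adjusted p = 0.000372), as did *Adrbk1*, which encodes the receptor kinase GRK2. Of 9 genes for other neutrophil attractants and their receptors, the formyl peptide receptor genes *Fpr1* (2.87, adjusted p = 0.0255) and *Fpr2* (2.32, adjusted p = 0.0159) rose, the leukotriene A4 hydrolase gene *Lta4h* fell and 6 did not pass. *Fpr1* was near the floor, with 36 counts over all 8 libraries and means of 0.0364 CPM in ft/ft and 0.336 CPM in ft/ftMyD88-/-. The count of 2 that rose was 5 with DESeq2 or with scaling by library size alone. It was 1 with edgeR's filterByExpr filter, without ft/ft replicate 1, 3 or 4 and without ft/ftMyD88-/- replicate 2 or 4. None fell without ft/ft replicate 3 or ft/ftMyD88-/- replicate 2 or 4. The same held with scaling by library size alone, with the replicate number as a block and without replicate 2 of both groups.

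Of 14 genes upstream of the ligands, 7 rose, 1 fell and 6 did not pass, with a median log2 fold change of 0.43. The 7 were *Il17a*, *Il17f*, *Il1b*, *Il1r1*, *Il17ra*, *Cebpb* and *Myd88* itself, and 4 rose without ft/ft replicate 1 or 3 or without ft/ftMyD88-/- replicate 2. *Il17a* stood at 0, 0.291, 0.112 and 0.0383 CPM in ft/ft and at 3.11, 2.65, 1.19 and 2.38 CPM in ft/ftMyD88-/- (log2 fold change 4.27, edgeR adjusted p = 0.000537), and *Il17f* rose with it (4.08, adjusted p = 0.00834). *Il1b* rose from a mean of 3.80 ± 3.45 CPM to 31.0 ± 12.5 CPM (SD, n = 4 each, with a log2 fold change of 3.00 and an edgeR adjusted p of 0.0250). In both groups the library with the highest *Il1b*, at 8.69 CPM in ft/ft and 47.6 CPM in ft/ftMyD88-/-, was replicate 2. *Tnf* was at 2.14 ± 0.690 and 3.07 ± 0.418 CPM (SD, n = 4 each, edgeR adjusted p = 0.146). *Nfkbiz*, which encodes the IL-17-responsive coactivator IkappaB-zeta, was at 35.8 ± 31.0 and 90.2 ± 8.03 CPM without overlap and did not pass (adjusted p = 0.133). Of 10 genes that set the stability of chemokine transcripts, 4 rose, *Arid5a*, *Elavl1*, *Srsf1* and *Traf2*, by log2 fold changes of 0.28 to 0.45, and none fell. The count was 1 when ft/ft replicate 4 was left out, 2 for replicate 3 and 7 for replicate 2, and 7 with DESeq2. *Zc3h12a*, which encodes the RNase Regnase-1, was at 32.4 ± 32.7 and 104 ± 19.4 CPM (SD, n = 4 each, edgeR adjusted p = 0.118).

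**Figure D4:**
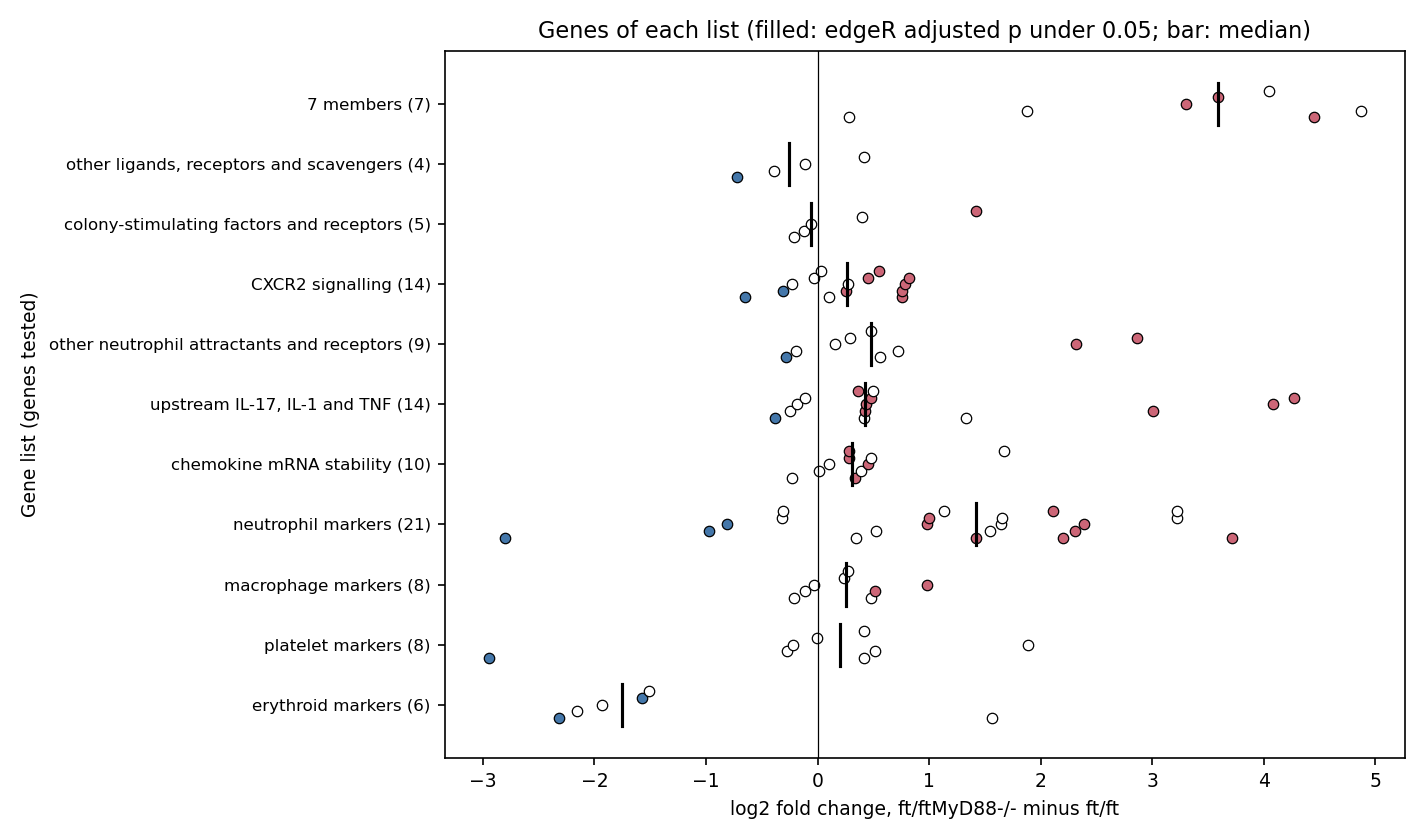
Log2 fold change of ft/ftMyD88-/- against ft/ft for each tested gene of the members and 10 related lists, with filled points for an edgeR adjusted p under 0.05 and black bars for list medians. The members have a median of 3.59, neutrophil markers 1.42 and platelet markers 0.20.

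Of 21 tested neutrophil markers, 8 rose, 3 fell and 10 did not pass, with a median log2 fold change of 1.42. Without ft/ft replicate 3 or 4 or ft/ftMyD88-/- replicate 4, 4 rose, 5 rose without ft/ft replicate 1, and 1 fell without ft/ftMyD88-/- replicate 2 or 4. Their summed level was 210, 517, 189 and 195 CPM in ft/ft and 992, 1059, 562 and 1209 CPM in ft/ftMyD88-/-, highest in replicate 4 there, whereas the ligand sum was highest in replicate 2. *S100a9*, *S100a8* and *Ltf* weigh most in this sum, at 368 ± 133, 242 ± 116 and 183 ± 140 CPM in ft/ftMyD88-/- (SD, n = 4). None of them passed, so the replicate order of the sum is mainly theirs and not that of the markers that rose. The 8 that rose included *Trem1* (means of 0.359 ± 0.518 and 5.13 ± 3.66 CPM, SD, n = 4 each, with a log2 fold change of 3.72 and an edgeR adjusted p of 0.0260), *Clec4d*, *Cd177* and *Csf3r*, and the 3 that fell were *Mpo*, *Prtn3* and *Il1r2*. In ft/ftMyD88-/-, *Trem1*, *Clec4d* and *Csf3r* were highest in replicate 2, at 10.4, 7.20 and 14.1 CPM. *Cd177* was highest in replicate 1, at 3.20 CPM. *S100a8*, which inflamed keratinocytes also make, was at 8.96, 88.4, 4.41 and 1.53 CPM in ft/ft, highest in replicate 2 as were the members, and at 176, 244, 145 and 405 CPM in ft/ftMyD88-/-. *Ly6g* and *Retnlg* were not analysed here, and no marker was at 0 in every library. Some granule genes of immature neutrophils were near 0 in both groups, with *Ngp* at 6 counts, *Elane* at 15 and *Camp* at 20 over all 8 libraries. The part of neutrophil number in the results for the members was not tested.

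Of 8 tested platelet markers none rose, 1 fell (*Tubb1*, with 12 counts over all libraries) and 7 did not pass, with summed levels of 18.6 to 23.0 CPM in ft/ft and 21.3 to 37.4 CPM in ft/ftMyD88-/-. The call of *Tubb1* was lost with DESeq2, without ft/ft replicate 1, 2 or 4 and without ft/ftMyD88-/- replicate 1, 2 or 4, and 1 marker rose without ft/ftMyD88-/- replicate 1 or 3. In ft/ftMyD88-/- the sum was 21.3, 37.4, 23.1 and 27.9 CPM in replicates 1 to 4. It was highest in replicate 2, as was *Ppbp*, but lowest in replicate 1, where *Ppbp* was at 19.9 CPM. In ft/ft the sum was 18.6, 20.5, 23.0 and 21.6 CPM in replicates 1 to 4, highest in replicate 3, whereas *Ppbp* was highest in replicate 2. Of 6 erythroid markers 2 fell (1 to 4 with a library left out) and 4 did not pass, with summed levels of 87.5 to 639 CPM in ft/ft and 73.1 to 134 in ft/ftMyD88-/-. Among macrophage markers, *Lyz2* and *C1qa* rose and 6 of 8 did not pass (793 to 1097 CPM in sum in ft/ftMyD88-/-, 568 to 754 in ft/ft). *Lyz2* weighs most in this sum, at 260 ± 13.5 CPM in ft/ft and 514 ± 117 CPM in ft/ftMyD88-/- (SD, n = 4 each). Of the 8 log2 fold changes 5 were above 0, and those of *Adgre1*, *Cd68* and *Csf1r* were -0.03, -0.11 and -0.21. None of 6 mast cell markers passed. With DESeq2, 2 mast cell markers rose, and without ft/ftMyD88-/- replicate 1, 2 rose and 1 fell. Basal keratinocyte, fibroblast, endothelial and skeletal muscle markers had calls only for lower levels, in 3 of 5, 2 of 5, 2 of 5 and 6 of 6 genes. None of 4 markers of hyperproliferative keratinocytes passed, although the libraries did not overlap for *Krt16*, with means of 104 ± 99.4 CPM for ft/ft and 626 ± 339 CPM for ft/ftMyD88-/- (SD, n = 4 each, edgeR adjusted p = 0.0530). Of these 4 markers, 2 rose with DESeq2 or with scaling by library size alone. With limma voom, edgeR's filterByExpr filter or robust = FALSE, 1 rose. The count was also 1 without ft/ft replicate 2, without ft/ftMyD88-/- replicate 3 and without replicate 2 of both groups. The part of these cell types in the results was not tested.

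The genes most like the axis were sought among 13503 genes with a mean of at least 50 counts, by the Pearson correlation of log2 CPM with the mean of the members over the 8 libraries after the group means were taken off. Among the closest were *Elf3* (r = 0.980), which encodes an epithelial ETS factor, *Mall* (0.977), *Ceacam1* (0.967) and *Tmprss11g* (0.966). They were picked as the highest of 13503 correlations over only 8 libraries. The size of r and the replicate order shared with the members thus follow in part from the choice and test nothing. The levels of these genes did not differ between groups as those of the ligands did. *Elf3* was at 80.2, 112, 69.4 and 66.3 CPM in ft/ft and at 44.6, 56.6, 27.6 and 43.4 CPM in ft/ftMyD88-/-, lower in the latter (log2 fold change -0.93, edgeR adjusted p = 0.0221) but highest in replicate 2 of both groups and lowest in replicate 3 of ft/ftMyD88-/-. Keratins of conjunctival and other mucosal epithelium, chosen after their values had been seen, were also highest in replicate 2 of both groups (*Krt4*, *Krt7*, *Krt13* and *Krt19*). In ft/ftMyD88-/- *Krt19* was at 143, 188, 57.4 and 104 CPM, lowest in replicate 3 as were *Krt4* and *Krt7*, whereas *Krt13* was at 452, 885, 513 and 614 CPM and lowest in replicate 1. Their part in the spread of the members was not tested.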

How the data were processed

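RNA-seq counts of periocular skin were used from 8 libraries, 4 labelled ft/ft and 4 labelled ft/ftMyD88-/-. WT libraries were not analysed here. The values are raw, unnormalized counts per gene as the authors deposited them, made with HTSeq defaults from single-end reads mapped to GRCm38.p6 by HISAT and TopHat2. Versions and the annotation release are not given in the sources used here. The methods describe polyA-selected TruSeq libraries, whereas the labels name total RNA, a fixed-tissue protocol and Cell Ranger.

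Of 21247 genes, the 20454 whose counts added up to 10 or more were tested with edgeR 4.0.16 in R 4.3.3 (TMM, glmQLFit with robust = TRUE, glmQLFTest, two-sided, Benjamini-Hochberg adjustment over all of them at 0.05). Standard errors came from the fold change and its F value. On simulated data with 200 genes changed 4-fold in this comparison, 191 were called with 12 false calls among 20185 genes tested. The changed genes were drawn only from genes above a minimum mean count. That recovery need not hold for members with few counts or a high biological coefficient of variation. Correlations and the like used log2 CPM with a prior count of 2. Alternatives were DESeq2 1.42.0, limma voom (limma 3.58.1), other scalings and filters, robust = FALSE, a replicate block, an adjusted p under 0.01 and leaving out each library. A run without replicate 2 of both groups was chosen after seeing the data. Libraries of a group differed by far more than counting noise (chi-square per degree of freedom at least 15.1 in 12 pairs), so none was a duplicate. Floors of 3 counts cover counting error only, and the methods mention no molecular identifiers.

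Positions and promoters came from RefSeq for GRCm38.p6, which matched 16066 gene names, and transcript lengths from GENCODE release 21 for mouse. The genes named are the members, the genes of the lists, the label checks and the 5 genes most like the axis. Some of these are not reported here. *Krt4*, *Krt7*, *Krt13*, *Krt19*, *Muc4* and *Muc5ac* were added after their values had been seen. Members and lists were chosen with earlier results of these data known.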

Additional observations from a re-analysis of the deposited data

Results flagged for a closer look

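Among the 14 sets of 4 libraries (7 members in each of the groups), 2 held a library far from the other 3 by Dixon's test at the 95% level. For independent, normally distributed values, chance alone marks about 1 set in 20. The sets here share libraries and many hold counts near 0, so that rate need not hold for them. In ft/ft, *Cxcl2* was at 0.946 CPM in replicate 2, with the next library at 0.0383 CPM, so that the gap took up a share of 0.959 of the group's range. *Ppbp* was at 2.51 CPM in the same library, with the next at 0.575 CPM and a share of 0.846. Without ft/ft replicate 2 the log2 fold change was 7.09 for *Cxcl2* (edgeR adjusted p = 5.58e-05) and 6.08 for *Ppbp* (edgeR adjusted p = 0.136). That library also held 2430 of the 2758 ft/ft counts of *S100a8*.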

How the results depend on the processing

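No member changed direction under any of the 18 alternatives, and none was called lower. The number of members called higher, 3 as reported, was 5 with DESeq2, 5 with robust = FALSE, 6 with the replicate block and 1 at an adjusted p under 0.01. It ranged from 1 (without ft/ft replicate 1, 3 or 4) to 5 (without ft/ftMyD88-/- replicate 3) when each library was left out. *Cxcl1* was called in 18 of 18 alternatives, *Cxcl5* in 15, *Cxcl2* in 10, *Cxcl3* in 8, *Ppbp* in 4, *Csf3* in 3 and *Cxcr2* in 0. With the replicate number as a block, the edgeR adjusted p was 0.000236 for *Cxcl3*, 0.00666 for *Csf3* and 0.0485 for *Ppbp*. The deviations of same-numbered libraries from their group means correlated at -0.146, 0.0251, 0.0146 and -0.0169, so the numbers were not taken to pair the libraries. Scaling by library size alone moved the median log2 fold change of all genes to 0.19 and the calls to 4638 higher and 1326 lower, against 2239 and 2525, and it called 4 members higher. With the replicate block, 1 neutrophil marker fell and 2 genes of transcript stability rose. The causes were not tested. At 12 to 185 ligand counts per ft/ft library, depth limits the ft/ft levels of all 5 ligands.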

Other observations

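Counts of mitochondrially encoded genes made up 1.86% to 2.72% of each ft/ft library and 1.02% to 1.99% of each ft/ftMyD88-/- library (two-sided exact permutation test, p = 0.0571, n = 4 per group). Within ft/ftMyD88-/-, replicate 3, which was lowest for 5 of the 7 members, had the highest share. *Muc5ac*, a secreted mucin gene of conjunctival goblet cells chosen after its values had been seen, was at 79.5, 382, 152 and 57.6 CPM in ft/ft and at 295, 336, 188 and 242 CPM in ft/ftMyD88-/-, with replicate 2 the highest in both groups. *Muc4*, a mucin gene chosen in the same way, was at 88.3, 224, 74.4 and 81.9 CPM in ft/ft, highest in replicate 2, and at 76.4, 70.8, 38.8 and 39.5 CPM in ft/ftMyD88-/-, highest in replicate 1.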
